A study of Homo sapiens with 4 samples.

Results

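The genes of heme synthesis were followed in libraries labelled as the acute promyelocytic leukemia line NB4, with and without a degrader of the BET bromodomain proteins. The 9 genes (ALAS1, ALAS2, ALAD, UROS, UROD, CPOX, PPOX, FECH and SLC25A38) were taken by symbol from the 64252 genes of the count table, and all 9 passed the filter on low counts. They are not a full inventory of the pathway. The groups were 2 libraries of cells given 8 μM dBET1 for 24 h and 2 libraries of cells given DMSO, its solvent, for the same time. dBET1 is a degrader: one end binds BET proteins and the other recruits the ubiquitin ligase adaptor CRBN. NB4 carries the PML-RARa fusion. Both groups came from this single cell line and differ in the labels by treatment alone. The study compared them to look for signalling downstream of the BET proteins. The labels do not say whether the libraries of a group came from separate cultures, so the p-values measure only the spread between these libraries, which may be technical.

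Totals ran from 28019956 to 34685645 counts per library. The markers of the label were present in part. Of 12 promyelocyte and myeloid markers, 5, all genes of granule proteins, stayed under 1 CPM (the count scaled to the TMM-normalized library size) in all 4 libraries. ELANE and CTSG, which code for neutrophil granule proteases, had 0 counts in each of them, and MPO, the granule myeloperoxidase, had 0 counts in both DMSO libraries and 22 and 10 with dBET1. CEBPE was above 1 CPM in DMSO replicate 1 alone (1.10 CPM), and CEBPA was under 1 CPM in both DMSO libraries (0.153 and 0.249 CPM). The remaining markers of the list were above 1 CPM in every library. Among them with DMSO were FUT4 at 52.3 ± 3.80 CPM, SPI1 at 28.2 ± 0.767 CPM and LYZ at 17.9 ± 0.698 CPM (n = 2 each, SD). The 12 markers summed to 111 to 115 CPM with DMSO and to 79.3 to 79.4 CPM with dBET1. In contrast, 21 erythroid markers summed to 9308 and 10424 CPM with DMSO and to 5509 and 5474 CPM with dBET1, with 2 of the 21 under 1 CPM throughout. Of 8 lymphoid, natural killer and platelet markers, 5 were under 1 CPM throughout, with PF4 and MS4A1 at 0 counts in all libraries. NB4 is used below as the libraries are labelled.

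Heme is made partly in mitochondria and partly in the cytosol. Mitochondria import glycine and join it to succinyl-CoA, the cytosol turns the product into a porphyrin ring, and the last steps, back in mitochondria, oxidize the ring and insert iron. Red cell precursors make most of the body's heme, for hemoglobin, and use a first enzyme of their own, ALAS2, in place of the widely expressed ALAS1. In contrast to ALAS1, which is held down by heme, ALAS2 is known to be driven by the erythroid factor GATA1 and, through an element in its message, by iron.

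The sequence just before the transcript start is shown for ALAS1, ALAS2, CPOX, SLC25A38 and ALAD, each with a match to a motif named below. Of these, ALAD alone rose after dBET1. Windows of UROD and FECH, which had no match, and of PPOX are not shown. RefSeq starts (GRCh38.p14) were found for 8 of the 9 genes, in 10 windows, with a pair of starts each for ALAD and PPOX, and none for UROS. The 250 bases before each start were searched on both strands for GATAA, the core of GATA factor sites, for CACCC, the core of sites of Kruppel-like factors such as KLF1, and for CACGTG, the E-box of MYC and its relatives. Capitals mark these letters, or their complement, in the strand that is transcribed. The search took in all 250 bases, exon bases included. From the sequences printed here, bases that GENCODE assigns to an exon were left out, which removed 6 bases next to the start of ALAD and 37 next to that of CPOX.
ALAS1 (chr3:52197833-52198082, forward strand): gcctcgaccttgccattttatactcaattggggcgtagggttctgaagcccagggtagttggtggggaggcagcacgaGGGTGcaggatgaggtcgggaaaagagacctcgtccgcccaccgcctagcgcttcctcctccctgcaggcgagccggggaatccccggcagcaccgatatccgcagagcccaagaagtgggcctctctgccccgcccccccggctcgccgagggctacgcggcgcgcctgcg
ALAS2 (chrX:55030978-55031227, reverse strand): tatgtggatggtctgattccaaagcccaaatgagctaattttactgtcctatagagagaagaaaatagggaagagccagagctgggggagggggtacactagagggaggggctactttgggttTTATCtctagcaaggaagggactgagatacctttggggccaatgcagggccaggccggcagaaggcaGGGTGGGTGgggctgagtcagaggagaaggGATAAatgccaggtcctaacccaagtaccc
CPOX (chr3:98593649-98593861, reverse strand): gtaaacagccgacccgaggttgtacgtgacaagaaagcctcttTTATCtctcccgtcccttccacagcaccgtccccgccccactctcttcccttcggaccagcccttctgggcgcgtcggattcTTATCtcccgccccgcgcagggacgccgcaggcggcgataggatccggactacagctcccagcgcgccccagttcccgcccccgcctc
SLC25A38 (chr3:39383120-39383369, forward strand): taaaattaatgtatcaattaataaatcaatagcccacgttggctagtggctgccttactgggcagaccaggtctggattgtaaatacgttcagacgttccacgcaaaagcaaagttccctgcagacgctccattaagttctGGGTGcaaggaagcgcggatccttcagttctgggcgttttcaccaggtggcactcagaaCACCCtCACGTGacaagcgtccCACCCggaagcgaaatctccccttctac
ALAD (chr9:113401291-113401534, reverse strand): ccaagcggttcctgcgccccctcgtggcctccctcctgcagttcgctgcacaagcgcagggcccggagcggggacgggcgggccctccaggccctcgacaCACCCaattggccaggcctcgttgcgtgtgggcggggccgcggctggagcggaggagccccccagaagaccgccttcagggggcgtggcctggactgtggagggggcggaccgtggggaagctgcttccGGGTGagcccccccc

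GATAA was present in 3 of the 10 windows, those of 3 genes, and in 20.4% of 35116 windows of all RefSeq genes. ALAS2 held it 127 and 30 bases before its start, CPOX 207 and 125 bases before, and PPOX 63 bases before its second start, in a window of which 236 bases are exon of PPOX. ALAS1 had none in its window. CACCC was present in 6 of the 10 windows, those of 5 genes (54.7% of all windows), including a pair in ALAS2, 60 and 56 bases before the start, that share a base. The windows of ALAD overlap, so that the match 185 bases before its second start is the same site as that 21 bases before its first. The window of SLC25A38 was the 1 of 10 with CACGTG (6.34% of all windows), 44 bases before its start. The ALAS2 window was 52.8% G or C with 1 CpG, while that of ALAS1 was 67.2% with 22 CpG, against medians of 58% and 11 CpG in all windows. FECH and UROD had none of the 3 motifs in their windows. A match is a stretch of letters and was not shown to be bound.

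The element through which iron acts on ALAS2 lies at the start of its message, and its loop is known to read CAGTGN. These letters stood at bases 21 to 26 from the ALAS2 start, shown in capitals in the 30 bases around them (GRCh38.p14, chrX:55030940-55030969, reverse strand).
ALAS2 element: ttcgttcgtcctCAGTGCagggcaacaggt
Among the first 50 bases of all RefSeq windows, 6.36% held CAGTGN on the transcribed strand, and of the 8 heme synthesis genes ALAS2 alone did.

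After dBET1, heme synthesis genes moved in both directions. UROD and ALAS2, the most abundant of the 9 per length of exon with DMSO, fell to 0.474 and 0.519 of their level, and SLC25A38 and CPOX fell to 0.654 and 0.735. ALAD rose 2.47-fold and UROS 1.31-fold. ALAS1, at 0.846 of its level, and FECH, at 1.17-fold, passed the threshold narrowly, and PPOX did not pass it. By the quasi-likelihood test of edgeR, at a Benjamini-Hochberg adjusted p under 0.05 across 17971 genes, 5 of the 9 were lower and 3 were higher. Across all 17971 genes tested, 27.6% were lower and 28% were higher by the same rule, 55.6% in all. Among the 6361 tested genes whose mean level lay within that of the 9 (26.2 to 287 CPM), 48.9% were lower and 19.6% were higher, 68.5% in all. The 5 lower genes of 9 are therefore close to the share of genes of this abundance. The median log2 fold change was -0.30 over the 9 genes, -0.25 over the genes of this range and 0.048 over all genes tested. With a log2 fold change beyond 1 in size asked for as well, UROD was lower and ALAD was higher, against 8.54% and 16.9% of all genes tested (25.4% in either direction) and 10.9% and 3.21% of the genes in the same range (14.1% in either direction). Fewer cells of a kind and less RNA per cell cannot be told apart in these bulk libraries.

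**Figure D1:**
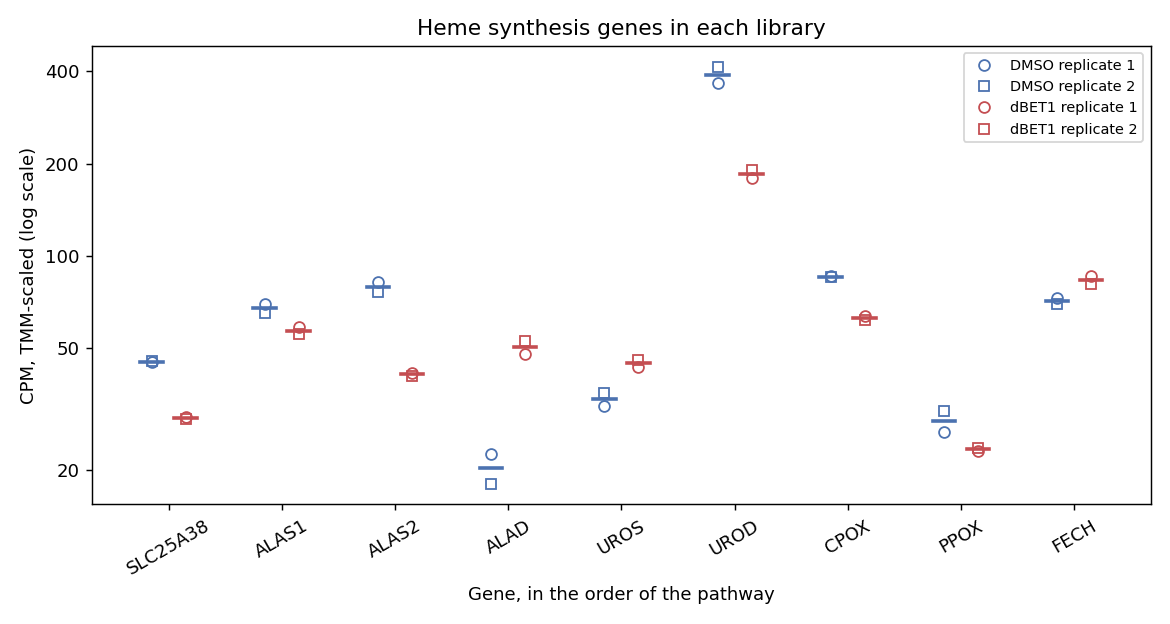
Level of each heme synthesis gene in each of the 4 libraries, in CPM on the TMM-scaled library size (log axis), with genes in the order of the pathway. Circles and squares are replicates 1 and 2 and bars are group means of 2 libraries; in no gene do the DMSO and dBET1 libraries overlap, with 6 genes lower and 3 higher after dBET1.

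In none of the 9 genes did the libraries of the groups overlap. With 2 libraries a group this is common: of all genes tested, 37.4% were lower and 41.9% were higher without overlap. Genes are described below in the order of the pathway, with coordinates on hg38.

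SLC25A38 (ENSG00000144659, chromosome 3, 39383370 to 39397351, forward strand) codes for the carrier that brings glycine into mitochondria. It had 1470 and 1275 counts with DMSO, or 45.1 and 45.4 CPM, and 894 and 897 counts with dBET1, or 29.8 and 29.4 CPM. The replicates of each group lay close together, and both dBET1 libraries were lower. SLC25A38 fell by 0.61 on the log2 scale (edgeR adjusted p = 0.000997, standard error 0.0923).

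ALAS1 (ENSG00000023330, chromosome 3, 52198086 to 52214327, forward strand) and ALAS2 (ENSG00000158578, chromosome X, 55009055 to 55030977, reverse strand) code for the enzymes that make 5-aminolevulinate, the step that commits glycine to heme. ALAS2 had 2684 and 2137 counts with DMSO, or 82.2 and 76.0 CPM, and 1246 and 1243 counts with dBET1, or 41.5 and 40.7 CPM. It fell by 0.94 on the log2 scale (edgeR adjusted p = 9.30e-05, standard error 0.0881), short of the limit of 1 that the study set. ALAS1 had 2280 and 1826 counts with DMSO, or 69.9 and 65.0 CPM, and 1756 and 1696 counts with dBET1, or 58.5 and 55.6 CPM. Its log2 fold change was -0.24 (edgeR adjusted p = 0.0470, standard error 0.0878). That call was lost in 8 of 11 alternatives, among them total counts only (log2 fold change -0.032, adjusted p = 0.789), the fit without dBET1 replicate 1 (adjusted p = 0.183) and the fit without dBET1 replicate 2 (adjusted p = 0.305), all from edgeR.

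Within each library the ratio of ALAS2 to ALAS1 does not depend on scaling between libraries. The log2 ratio of their counts was 0.24 and 0.23 with DMSO, and -0.49 and -0.45 with dBET1. Per kilobase of exon, ALAS2 was 1.46 and 1.45 times ALAS1 with DMSO and 0.879 and 0.908 times with dBET1. The order of the erythroid and the widely expressed enzyme gene was thus opposite in the 2 groups. The mean log2 ratio fell by 0.70, with a pooled SD within groups of 0.0237 (n = 2 in each group). An exact permutation test of 2 against 2 libraries cannot give a two-sided p under 0.333, so none is given.

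ALAD (ENSG00000148218, chromosome 9, 113386312 to 113401290, reverse strand) codes for the cytosolic enzyme that joins 5-aminolevulinate molecules into porphobilinogen. It had 739 and 509 counts with DMSO, or 22.6 and 18.1 CPM, and 1435 and 1612 counts with dBET1, or 47.8 and 52.8 CPM. Of the 9 genes ALAD showed the largest change, a rise of 1.30 on the log2 scale (edgeR adjusted p = 0.000134, standard error 0.131), and it stood at the 85.2 percentile of the log2 fold changes of all genes tested. The rise was past both thresholds in all 11 alternatives, at 1.12 to 1.51.

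UROS (ENSG00000188690, chromosome 10, 125784980 to 125823258, reverse strand), whose enzyme closes the porphyrin ring, had 1060 and 1005 counts with DMSO, or 32.5 and 35.8 CPM. With dBET1 it had 1307 and 1399 counts, or 43.5 and 45.8 CPM. It rose by 0.39 on the log2 scale (edgeR adjusted p = 0.0114, standard error 0.0987). This call was lost without dBET1 replicate 1 (edgeR adjusted p = 0.0661), without dBET1 replicate 2 (edgeR adjusted p = 0.131) and with no filter on low counts (edgeR adjusted p = 0.0549).

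UROD (ENSG00000126088, chromosome 1, 45010950 to 45015575, forward strand), whose cytosolic enzyme trims the side chains of the ring, was the most abundant of the 9. It had 11919 and 11620 counts with DMSO, or 365 and 413 CPM, and 5375 and 5805 counts with dBET1, or 179 and 190 CPM. UROD fell by 1.08 on the log2 scale (edgeR adjusted p = 4.49e-05, standard error 0.0849), at the 7.87 percentile of all genes tested. It was short of the limit of 1 with total counts only, at -0.87. Exons of HECTD3, on the opposite strand, cover 9.31% of its exon length. HECTD3 had 2566 and 2168 counts with DMSO and 2560 and 2655 with dBET1, and reads of the shared part could be counted for either gene.

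CPOX (ENSG00000080819, chromosome 3, 98579446 to 98593648, reverse strand) codes for the mitochondrial oxidase that acts on coproporphyrinogen. It had 2801 and 2394 counts with DMSO, or 85.8 and 85.2 CPM, and 1917 and 1885 counts with dBET1, or 63.9 and 61.7 CPM. CPOX fell by 0.45 on the log2 scale (edgeR adjusted p = 0.00234, standard error 0.0801).

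PPOX (ENSG00000143224, chromosome 1, 161166056 to 161178013, forward strand), the gene of the enzyme that oxidizes the ring to protoporphyrin, was the 1 of the 9 that missed the threshold. It had 869 and 878 counts with DMSO, or 26.6 and 31.2 CPM, and 694 and 724 counts with dBET1, or 23.1 and 23.7 CPM. The log2 fold change was -0.30 (edgeR adjusted p = 0.0630, standard error 0.121). Without DMSO replicate 1 it was -0.44 and passed the threshold (edgeR adjusted p = 0.00785). Exons of B4GALT3, on the opposite strand, cover 23.7% of the exon length of PPOX. B4GALT3 had 2915 and 2733 counts with DMSO and 2059 and 2230 with dBET1, more than PPOX in every library, and the share of its reads in the PPOX count was not tested.

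FECH (ENSG00000066926, chromosome 18, 57544377 to 57586732, reverse strand) codes for ferrochelatase, the iron-sulfur enzyme that inserts iron into protoporphyrin. It had 2376 and 1961 counts with DMSO, or 72.8 and 69.8 CPM, and 2572 and 2478 counts with dBET1, or 85.7 and 81.2 CPM. Its log2 fold change was 0.23 (edgeR adjusted p = 0.0472, standard error 0.0824). That call was lost in 7 of 11 alternatives, among them DESeq2 (adjusted p = 0.106) and the edgeR fits without DMSO replicate 2 (adjusted p = 0.0819), without dBET1 replicate 1 (adjusted p = 0.374) and without dBET1 replicate 2 (adjusted p = 0.222).

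**Figure D2:**
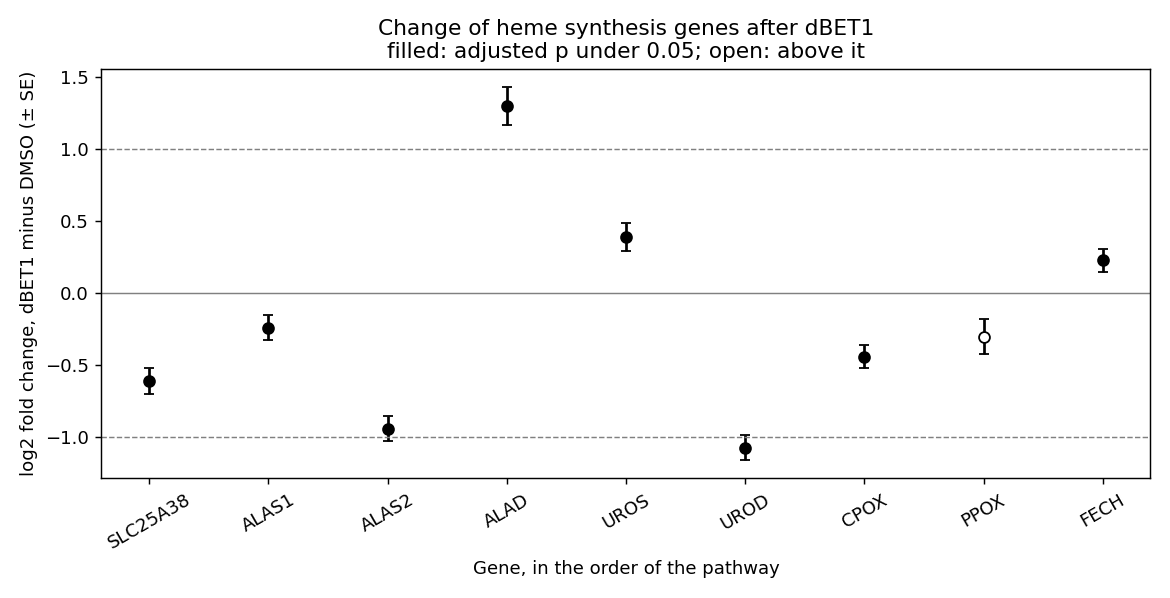
Log2 fold change of each heme synthesis gene, dBET1 minus DMSO, from edgeR with TMM scaling, with its standard error as bars and dashed lines at 1 and -1. Filled points had an adjusted p under 0.05 and the open point (PPOX) did not; ALAD at 1.30 and UROD at -1.08 lie at the ends.

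Genes of the mitochondrial and the cytosolic steps were found on both sides. Of the mitochondrial genes, SLC25A38, ALAS1, ALAS2 and CPOX were lower, FECH was higher and PPOX was not called. Of the cytosolic genes, UROD was lower, and ALAD and UROS were higher. The 9 genes summed to 803 and 840 CPM with DMSO and to 573 and 581 CPM with dBET1. UROD held most of this difference: the other 8 summed to 438 and 426 CPM with DMSO and to 394 and 391 CPM with dBET1.

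Levels of different genes were compared as CPM per kilobase of merged exons. With DMSO the order was UROD (96.6 ± 8.46), ALAS2 (38.7 ± 2.14), CPOX (27.1 ± 0.146), ALAS1 (26.6 ± 1.36), SLC25A38 (17.0 ± 0.0853), FECH (6.41 ± 0.193), PPOX (6.12 ± 0.690), ALAD (4.12 ± 0.648) and UROS (3.59 ± 0.244; CPM per kilobase, SD, n = 2 each). The libraries of CPOX and ALAS1 overlapped in this order, as did those of FECH and PPOX and those of ALAD and UROS. With dBET1 the order was UROD (45.8 ± 1.94), ALAS1 (22.5 ± 0.823), ALAS2 (20.1 ± 0.276), CPOX (19.9 ± 0.476), SLC25A38 (11.1 ± 0.107), ALAD (10.2 ± 0.714), FECH (7.50 ± 0.287), PPOX (4.96 ± 0.0888) and UROS (4.70 ± 0.170; CPM per kilobase, SD, n = 2 each), and the libraries of ALAS2 and CPOX alone overlapped between neighbours. UROD kept the highest level per length in both groups, while its share of the summed level of the 9 was 40.7% and 44.7% with DMSO and 30.4% and 32.0% with dBET1. ALAD made up 2.06% and 1.59% of that sum with DMSO and 6.62% and 7.24% with dBET1. The log2 ratio of UROD to ALAD counts was 4.01 and 4.51 with DMSO and 1.91 and 1.85 with dBET1.

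The order depends on the length given to a gene, since merged exons include retained introns: UROS counts 9505 bases of merged exon and 1336 bases in its MANE Select transcript. By MANE Select length, a choice made after seeing the data, UROS stood at rank 5 with DMSO (25.5 CPM per kilobase) and at rank 2 with dBET1 (33.4), ALAD at ranks 9 and 6, FECH at ranks 8 and 9, and UROD at rank 1 in both groups. The comparison of 1 gene between the groups does not depend on its length.

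**Figure D3:**
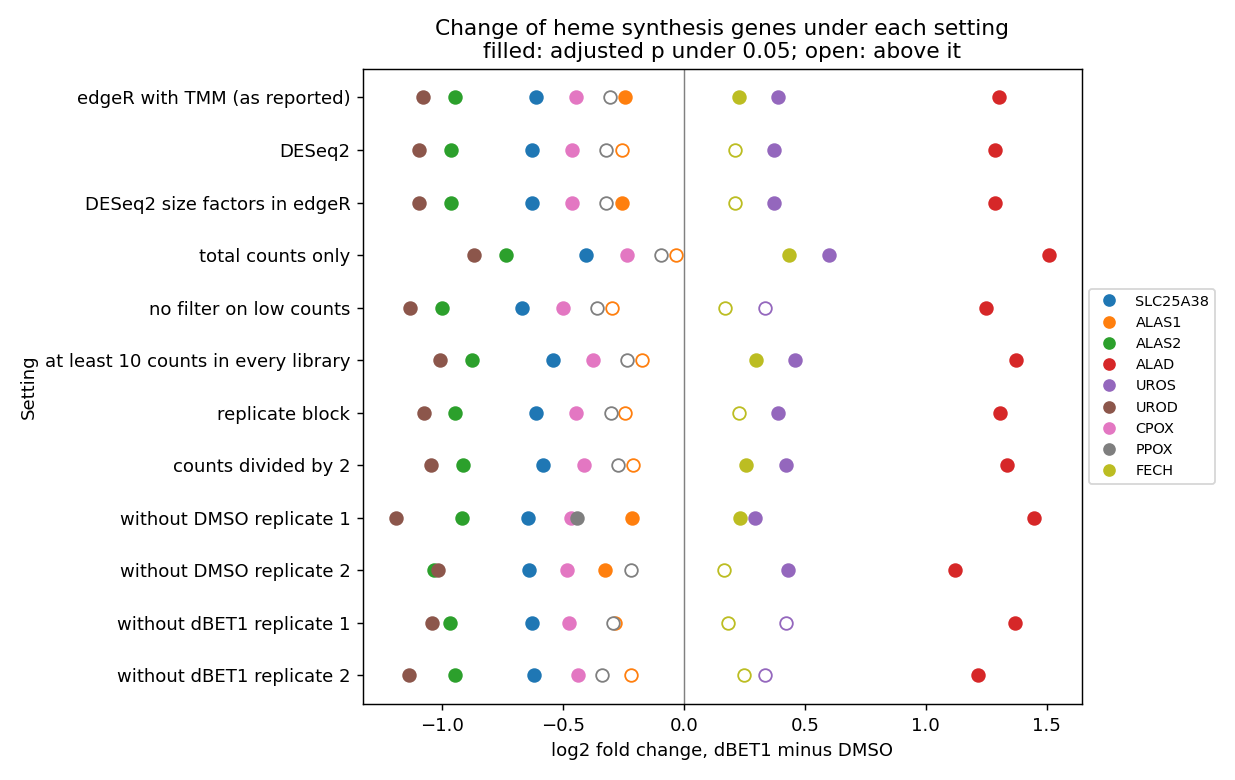
Log2 fold change of each heme synthesis gene, dBET1 minus DMSO, under the reported setting (top line) and 11 alternatives, 1 per line; filled points had an adjusted p under 0.05. Every gene stays on its side of 0, while the points of ALAS1, FECH, UROS and PPOX change between filled and open.

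Genes around the pathway were taken from lists of partners, suppliers and users of heme. The mitochondrial partners of the pathway had 7 genes lower and 2 higher of 16 tested (edgeR, adjusted p under 0.05). By the same rule, 27.6% of all genes tested were lower and 28% were higher. Within the level range of the 9 heme synthesis genes, 48.9% were lower and 19.6% were higher. The 7 lower of 16 are close to the share in that range. The median log2 fold change of the partners was -0.31, and that of the genes in the range was -0.25. LONP1, the mitochondrial protease that degrades ALAS1, fell from 412 ± 52.4 to 188 ± 8.96 CPM (n = 2 each, SD), a log2 fold change of -1.14. TMEM14C, which helps to move porphyrin intermediates in red cell precursors, fell by 0.55 on the log2 scale, from 138 ± 9.92 to 94.7 ± 3.15 CPM (n = 2 each, SD). The genes higher were ABCB6 (log2 fold change 0.57), an ABC transporter linked to porphyrins, and FAM210B (0.46), both named after their values were seen. ABCB6 lost its call with no filter on low counts, at 0.51, without DMSO replicate 1, at 0.28, and without dBET1 replicate 2, at 0.40, and FAM210B without dBET1 replicate 1, at 0.39. With total counts only, 6 genes of this list were lower and 5 were higher.

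Iron-sulfur cluster assembly, which supplies FECH with its cluster, had 10 genes lower and 0 higher of 14 tested (edgeR, adjusted p under 0.05). By the same rule, 27.6% of all genes tested were lower and 28% were higher. Among genes within the level range of the 9 heme synthesis genes, 48.9% were lower and 19.6% were higher. The median log2 fold change of the iron-sulfur list was -0.52. At an unadjusted p under 0.05 from the same fit the count of higher genes was also 0. At an adjusted p under 0.05 it was 0 in all 11 alternatives, DESeq2 included. HSPA9, the mitochondrial chaperone of this step, fell from 896 ± 43.2 to 305 ± 0.675 CPM (n = 2 each, SD), by 1.55 on the log2 scale. BOLA3 had a log2 fold change of -1.35. LYRM4, which codes for a partner of the cysteine desulfurase, fell from 51.4 ± 5.59 to 25.7 ± 0.659 CPM (n = 2 each, SD). GLRX5, a carrier of the clusters, fell from 108 ± 15.2 to 64.5 ± 5.59 CPM (n = 2 each, SD). Without dBET1 replicate 1, the count of lower genes was 6.

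Of 11 genes of heme export, uptake, breakdown and sensing, 9 were tested. At an adjusted p under 0.05 from edgeR, 4 were lower and 2 were higher, against 27.6% and 28% of all genes tested. Within the level range of the heme synthesis genes these shares were 48.9% and 19.6%. The median log2 fold change of the 9 tested genes of this list was 0.080. BLVRB, a biliverdin reductase and the most abundant of them per length, fell from 258 ± 36.0 to 126 ± 7.30 CPM (n = 2 each, SD), a log2 fold change of -1.04. EIF2AK1 codes for the kinase that heme holds inactive. It reached 502 and 464 CPM with DMSO and 556 and 560 CPM with dBET1, a log2 fold change of 0.21 whose call was lost in 7 of 11 alternatives, among them the fits without DMSO replicate 2, without dBET1 replicate 1 and without dBET1 replicate 2 (0.12, 0.21 and 0.19). BACH1, a repressor that heme inactivates, rose by 0.66 on the log2 scale, from 42.3 ± 4.64 to 66.8 ± 4.62 CPM (n = 2 each, SD), and was named after its values were seen. HMOX1, the inducible heme oxygenase, had 0, 0 and 0 counts in the DMSO libraries and dBET1 replicate 1 and 10 counts in dBET1 replicate 2, too few to test, and was named after its values were seen.

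**Figure D4:**
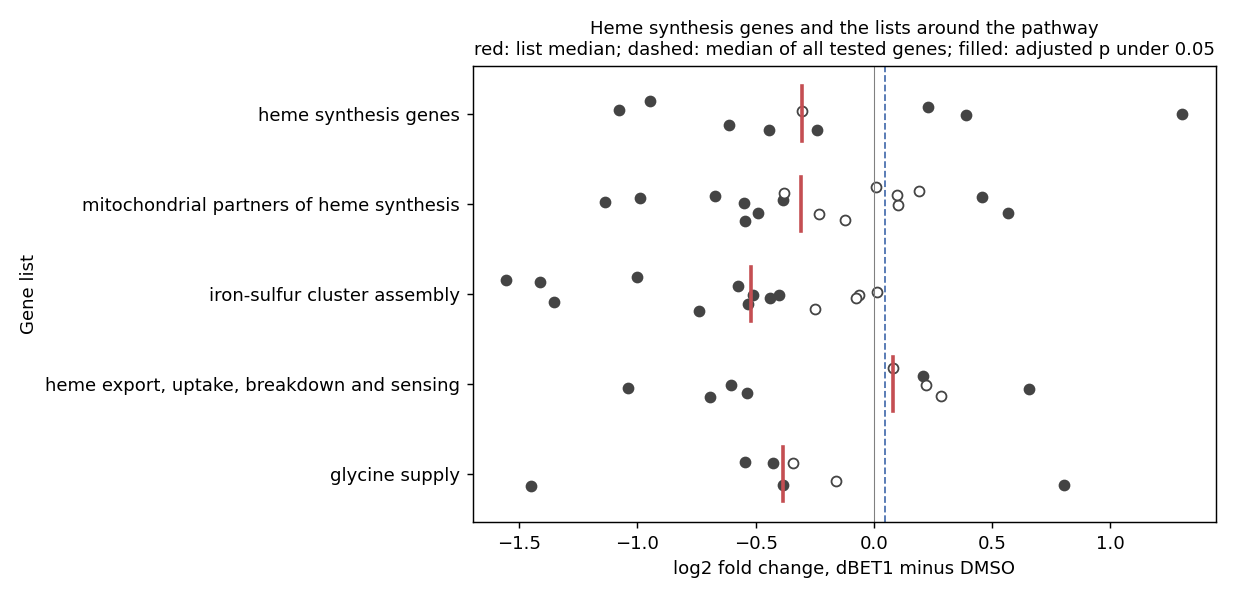
Log2 fold change, dBET1 minus DMSO, of each tested gene in the heme synthesis list and in 4 lists around the pathway, 1 point per gene; red bars are list medians, the dashed line is the median of all genes tested (0.048) and filled points had an adjusted p under 0.05. The iron-sulfur cluster list has no called gene above 0, while the heme synthesis genes spread from -1.08 to 1.30.

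Erythroid markers moved alongside: 15 of 20 tested were lower and 1 was higher (edgeR, adjusted p under 0.05). The same rule called 27.6% of all genes tested lower and 28% higher. The median log2 fold change of the erythroid markers was -0.83. The most abundant of them per length, HBG2, HBA1 and HBA2, had log2 fold changes of -0.65, -1.54 and -1.62. Their near-identical copies can share reads. GATA1 and KLF1, the factors named above, were both called lower, with log2 fold changes of -0.50 and -2.19. They are given here after their values were seen. The 1 higher erythroid marker was SLC4A1, with 22 and 9 counts with DMSO and 68 and 81 with dBET1 (log2 fold change 2.28). TAL1 (0.18), ZFPM1 (0.27), EPOR (-0.35) and EPB42 (-1.02) were not called, and were named after their values were seen. Myeloid markers had 3 genes lower and 2 higher of 9 tested. The count of higher ones was 1 without dBET1 replicate 1, 1 with counts divided by 2 and 0 with at least 10 counts in every library, and the count of lower ones ran from 2 to 4 over the 11 alternatives. The 2 higher were MPO, with the counts given above, and CEBPA, a myeloid transcription factor. CEBPA had 5 and 7 counts with DMSO and 58 and 54 with dBET1. Both genes passed the filter on low counts through the dBET1 libraries alone, so they could be called higher but not lower. The 3 lower, SPI1, LYZ and FUT4, were the most abundant of them per length, and SPI1 reached 28.2 ± 0.767 CPM with DMSO and 22.4 ± 2.02 CPM with dBET1 (n = 2 each, SD). The part of these changes in the changes of heme synthesis genes was not tested.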

How the data were processed

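RNA of 4 libraries of cells labelled NB4 was sequenced as paired-end reads. For alignment to hg38 the authors used HISAT2 2.2.0 and for abundances StringTie. The table the authors deposited gives counts as whole numbers for each Ensembl gene, without normalization. How StringTie abundances became counts, and the strand setting, are not given in the sources used here, so overlapping genes can share counts. The labels and the paper's methods name different RNA extraction reagents. In DMSO replicate 1, 2426 genes had 1 count, 2028 had 2 and 1016 had 3. In case read pairs were counted 2 times, counts divided by 2 were an alternative.

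All value columns were used, and 0 rows lacked a gene name. Symbols and positions came from GENCODE 44, which held 56105 of the 64252 identifiers, and promoter sequences from RefSeq. Counts were fitted with edgeR 4.0.16 in R 4.3.3 (filterByExpr, TMM, quasi-likelihood test, treatment as the only term). The p-values were adjusted by Benjamini-Hochberg across 17971 genes. TMM factors were 0.941 and 0.918 with DMSO and 1.07 and 1.08 with dBET1, so the scaling differed by group. Levels are relative to the other genes of a library, and a change of total RNA per cell was not tested. The standard error was the size of the log2 fold change divided by the square root of F. The heme synthesis genes had at least 509 counts in every library, a counting error of at most 4.43%. Replicates differed by more than sampling noise (chi-square per degree of freedom 23.6 for DMSO and 8.14 for dBET1), so none was a second copy. The fit was run on simulated counts in which few genes changed, evenly in both directions. In these data 55.6% of genes tested were called, so that run does not check the scaling used here. Alternatives were DESeq2 1.42.0, its size factors, total counts, no filter, at least 10 counts in every library, the replicate block, counts divided by 2 and each library left out. The genes and lists were chosen with earlier results of these data known. Named genes are the 9 heme synthesis genes and, from each other list, genes past both thresholds or among the 2 most abundant with DMSO per length (3 for cell type markers, with those at or near 0); others are said to be named after their values were seen. Figures were drawn with matplotlib 3.10.9 in Python 3.11.15. One gene of the lists around the pathway is not reported here.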

Additional observations from a re-analysis of the deposited data

How the results depend on the processing

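No heme synthesis gene changed direction under any of the 11 alternatives. ALAS2, ALAD, UROD, CPOX and SLC25A38 kept their side of the threshold in all of them. ALAS1 was no longer called with DESeq2 (-0.26), total counts only (-0.032), no filter (-0.30), at least 10 counts in every library (-0.17), the replicate block (-0.24) and counts divided by 2 (-0.21), and with each library left out in turn it ran from -0.32 to -0.22. FECH was no longer called with DESeq2 (0.21), its size factors (0.21), no filter (0.17) and the replicate block (0.23), and ran from 0.17 to 0.25 across the fits without 1 library. UROS was no longer called with no filter (0.34) and ran from 0.29 to 0.43 without 1 library, and PPOX ran from -0.44 to -0.22. The cause of these shifts was not tested.

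The median of the 9 genes was -0.093 with total counts only, a scaling that moves the median of all genes from 0.048 to 0.26, and -0.44 to -0.29 without 1 library. No heme synthesis gene was lower past both thresholds with total counts only (0 genes), and 1 to 2 were without 1 library. At an adjusted p under 0.05, 1 was higher with no filter, and 1 to 3 were without 1 library. Over all genes past both thresholds, 952 were lower with total counts only and 1940 were higher with at least 10 counts in every library, where 15250 genes were tested. Genes higher at an adjusted p under 0.05 numbered 3356 to 5118 without 1 library, the fewest without dBET1 replicate 2. Among genes past both thresholds, the higher ones made up 66.4% under TMM and 80.2% under total counts.

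With the replicate number as a block, 4 heme synthesis genes were lower and 2 were higher, and ALAS1 and FECH lost their calls (adjusted p = 0.0588 and 0.0688 from edgeR's quasi-likelihood test). Deviations of same-numbered libraries from their group means correlated at 0.0023 across genes, so the libraries share a number and no more is known of a pairing. Of 30 called genes in the lists around the pathway, 21 kept direction and call throughout, 9 lost the call in at least 1 alternative and 0 changed direction. A lone library of a group is assumed in these fits to vary like the other group.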

Other observations

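Genes that supply glycine, which SLC25A38 carries into mitochondria, moved in both directions after dBET1. Of 8 genes, 7 were tested, with 4 lower and 1 higher (edgeR, adjusted p under 0.05) and a median log2 fold change of -0.39. Of all genes tested, 27.6% were lower and 28% were higher. Within the level range of the heme synthesis genes, 48.9% were lower and 19.6% were higher, so 4 lower of 7 is close to that share. With total counts only, 3 genes of this list were lower. PSAT1, an enzyme of serine synthesis, the source of most glycine made in cells, fell from 127 ± 10.9 to 46.6 ± 1.96 CPM (n = 2 each, SD), by 1.45 on the log2 scale. PHGDH, the first enzyme of that route, was the most abundant of the list per length and fell from 1570 ± 97.5 to 1077 ± 51.6 CPM (n = 2 each, SD). SHMT2, which turns serine into glycine in mitochondria, fell by 0.43 on the log2 scale, from 265 ± 3.28 to 197 ± 6.97 CPM (n = 2 each, SD). SLC36A1, a transporter of small amino acids including glycine, rose by 0.81 on the same scale, from 20.7 ± 2.38 to 36.2 ± 0.715 CPM (n = 2 each, SD), and was named after its values were seen. SLC6A5, a glycine transporter of neurons, had 0 counts in all 4 libraries. SHMT2 and SLC6A5 were also named after their values were seen.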
